A study of Homo sapiens with 2 samples.

Results

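Peaks of open chromatin that lay at the end of exactly 1 protein-coding gene made up 1696 of the 4428 peaks of an ATAC-seq study of C4-2 cells. ATAC-seq reads where a transposase can enter the DNA, and a peak is a stretch with more reads than its surroundings. A peak was taken when its edge lay within 1 kb of an annotated start or end of 1 protein-coding RefSeq gene and of no other, on chromosomes 1 to 22 and X. The control list gave 789 such peaks of its 2010, and the knockdown list 907 of its 2418. Of the peaks on the chromosomes used, these were 40.8% of 1935 (95% exact binomial interval 38.6 to 43.0) in the control and 39.0% of 2327 (37.0 to 41.0) after knockdown. The other control peaks there fell at the ends of 2 or more genes (194), inside a gene (355) or outside genes (597), and the other knockdown peaks numbered 248, 462 and 710 in the same order.

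C4-2 is an established human prostate cancer line, derived from LNCaP, that grows without androgen. Both libraries came from these cells in RPMI with 10% serum and antibiotics, 1 carrying a control shRNA and 1 an shRNA against WHSC1, also called NSD2, which encodes a histone H3 methyltransferase. The control shRNA library was the reference. Whether the cells were a pool or a clone, how long the shRNA acted and how far it lowered NSD2 were not given in the sources used here. With 1 library per group no difference between the groups could be tested. All intervals below cover counting only, and peaks or genes of 1 library are not replicates of a condition. A missing peak means that none was called, since the depth of the libraries is unknown.

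The start of a gene holds its promoter, where RNA polymerase assembles, and active promoters are usually kept free of nucleosomes, so that they are a main site of open chromatin. Most promoters of genes used in many cell types lie in CpG islands, stretches rich in CG pairs that are mostly unmethylated. The 3′ end of a gene, where transcripts are cut and polyadenylated, is open far less often. NSD2 adds methyl groups to lysine 36 of histone H3.

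To show what such a gene start looks like, the 250 bases before the annotated start are printed for 6 genes whose peak covered that start. They are taken from the genes with the highest fold, and they show how much these promoters differ in base composition. The sequences are those of the RefSeq promoter table (GRCh38.p14), written 5′ to 3′ on the strand of the gene, and capitals mark matches, on either strand, to the short motifs described further down. ADGRV1 (chr5:90558547-90558796, plus strand) and ZRANB2 (chr1:71081036-71081285, minus strand) had a peak in both lists. PSIP1 (chr9:15510971-15511220, minus strand) and UFM1 (chr13:38349601-38349850, plus strand) had one in the control list only. FGD4 (chr12:32399308-32399557, plus strand) and TRDMT1 (chr10:17201673-17201922, minus strand) had one in the knockdown list only.
ADGRV1: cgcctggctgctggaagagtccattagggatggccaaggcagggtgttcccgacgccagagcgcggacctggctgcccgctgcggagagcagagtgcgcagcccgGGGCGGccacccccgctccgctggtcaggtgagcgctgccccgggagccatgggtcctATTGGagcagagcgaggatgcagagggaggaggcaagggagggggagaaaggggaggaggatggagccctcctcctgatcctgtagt
ZRANB2: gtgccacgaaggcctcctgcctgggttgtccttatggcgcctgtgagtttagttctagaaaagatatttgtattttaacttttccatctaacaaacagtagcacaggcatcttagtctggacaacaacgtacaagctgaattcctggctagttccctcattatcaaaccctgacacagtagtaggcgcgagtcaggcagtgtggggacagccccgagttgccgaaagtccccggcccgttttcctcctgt
PSIP1: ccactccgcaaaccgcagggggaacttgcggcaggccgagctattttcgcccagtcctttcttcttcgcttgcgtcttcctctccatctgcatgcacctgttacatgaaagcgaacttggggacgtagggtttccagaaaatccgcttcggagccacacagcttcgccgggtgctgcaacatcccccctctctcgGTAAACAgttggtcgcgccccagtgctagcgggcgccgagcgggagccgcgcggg
UFM1: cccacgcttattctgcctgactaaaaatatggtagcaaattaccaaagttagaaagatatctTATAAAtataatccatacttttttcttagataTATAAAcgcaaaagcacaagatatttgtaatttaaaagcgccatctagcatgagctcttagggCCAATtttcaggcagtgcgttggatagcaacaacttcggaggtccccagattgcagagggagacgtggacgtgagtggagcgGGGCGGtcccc
FGD4: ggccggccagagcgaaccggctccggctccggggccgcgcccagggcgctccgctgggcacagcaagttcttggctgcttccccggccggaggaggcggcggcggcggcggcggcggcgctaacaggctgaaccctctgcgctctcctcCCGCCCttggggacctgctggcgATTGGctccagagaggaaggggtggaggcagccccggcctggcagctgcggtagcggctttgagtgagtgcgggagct
TRDMT1: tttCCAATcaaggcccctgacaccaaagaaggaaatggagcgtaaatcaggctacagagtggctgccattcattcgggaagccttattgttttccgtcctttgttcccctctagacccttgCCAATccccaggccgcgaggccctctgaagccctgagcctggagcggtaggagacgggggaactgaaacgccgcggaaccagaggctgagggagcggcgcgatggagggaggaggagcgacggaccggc

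The GC content of these windows ran from 42.4% at UFM1 and 50% at ZRANB2 through 60% at TRDMT1, 61.6% at PSIP1 and 68.4% at ADGRV1 to 74.0% at FGD4. The capitals in ADGRV1 and FGD4 are a GC box (GGGCGG) and a CCAAT box, 1 each. In TRDMT1 they are 2 CCAAT boxes, and in PSIP1 a forkhead site. UFM1 held 2 TATA boxes, a CCAAT box and a GC box. No searched motif matched in ZRANB2.

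Where the strand was known, nearly all of these peaks sat at the 5′ end of the gene. Strand came from the same RefSeq promoter table, which held 15812 of the 19974 protein-coding genes. In the control 641 of the 647 peaks at 1 end of a gene of known strand lay at the 5′ end (99.1%, 98.0 to 99.7), and after knockdown 744 of 755 (98.5%, 97.4 to 99.3). The ends open to the rule were about as many on either side, 12675 at 5′ ends and 13468 at 3′ ends with no other protein-coding gene end in reach. In a further 141 control and 148 knockdown peaks the strand was not known, and 70 and 72 of these were on chromosome 8, for which the table gave no strand. A peak reached both ends of a short gene once in the control and 4 times after knockdown.

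At 5′ ends most peaks lay close to the gene start. The rule reached 1 kb to either side of a gene end, so that a median near the start is partly set by it. The middle of the peak lay at a median of -19 bp from the start in the control (quartiles -193 and 129) and at -15.5 bp after knockdown (-168 and 134). It lay inside the gene in 47.9% and 47.6% of them. Within 500 bp of the start were 593 of 641 control peaks (92.5%) and 679 of 744 knockdown peaks (91.3%). The annotated start itself was covered by 389 control peaks (60.7%, 56.8 to 64.5) and 446 knockdown peaks (59.9%, 56.3 to 63.5). Of the 252 control peaks that missed it, 149 lay upstream and 103 in the gene, and of the 298 knockdown peaks 178 and 120. Of those in the gene, 31 control peaks (30.1%) and 37 knockdown peaks (30.8%) covered another start that the promoter table gives for the same gene.

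**Figure D1:**
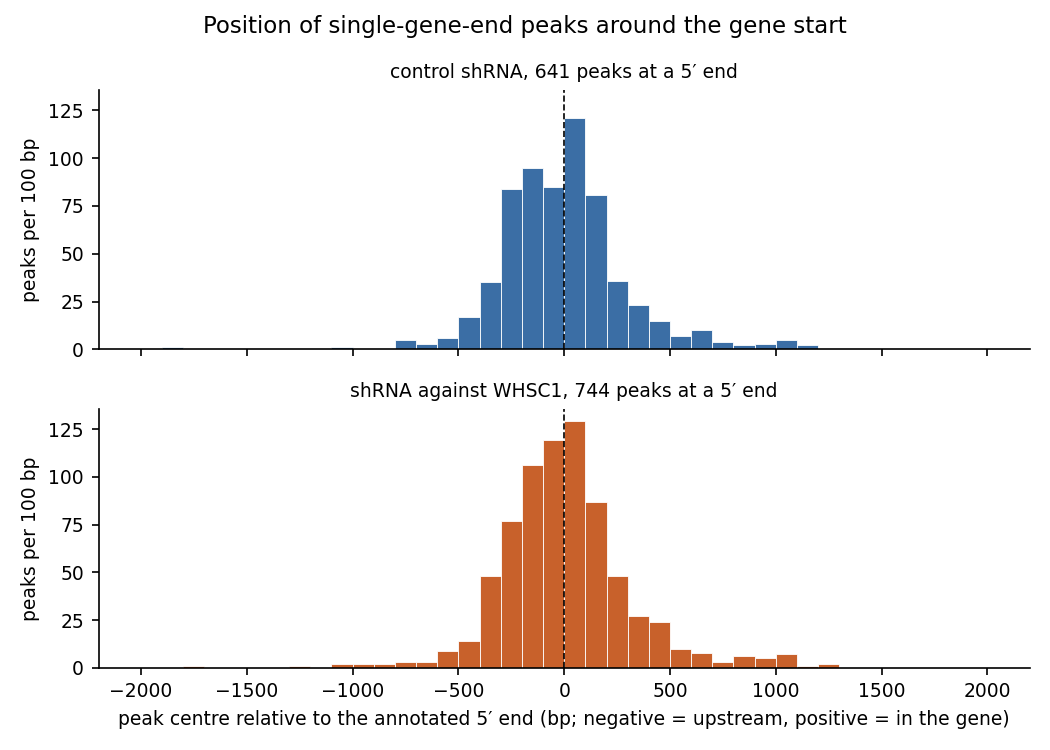
Number of peaks per 100 bp (vertical axis) by the distance of the peak's middle from the annotated 5′ end in bp (horizontal axis, negative upstream), for 641 control and 744 knockdown peaks at a 5′ end. The medians are -19 and -15.5 bp, under a rule that reached 1 kb to either side of the gene end, and TAF11L7 is the far upstream point in each.

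By distance of the edge from the nearest gene end, 472 control and 541 knockdown peaks of all end types covered it, and 15 and 19 lay over 750 bp away. These peaks just inside the limit had a median fold of 3.69 and 3.31, and the 11 control and 11 knockdown peaks just outside it, at 1001 to 1250 bp, had 3.17 and 3.30.

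Peaks at 3′ ends were few, 6 in the control and 11 after knockdown, and most were narrow. Their median width was 284 bp in the control and 315 bp after knockdown, and 3 in each list overlapped a peak of the other. Those 3 were at TAF11L5, ASB4 and CEP350. TAF11L5 had fold 5.62 and 5.87 in control and knockdown, ASB4, a subunit of a ubiquitin ligase, 3.93 and 3.92, and CEP350, a centrosome protein, 3.38 and 3.50. The control list alone had a 3′ peak at ASCL5 (fold 3.73), CIP2A (3.33), which inhibits a tumour suppressor phosphatase, and DMRTA1 (3.14). The knockdown list alone had 8, of which TRDMT1 (3.45) and the kallikrein gene KLK9 (3.34) were the highest. Few genes had a peak at each end or 2 at 1 end. These were CEP350 and STAU2 in the control, and CEP350, OTULIN and TRDMT1 after knockdown.

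The median fold of these peaks was near that of the other peaks of their list, and their median width was larger than that of peaks away from gene ends. The fold is the authors' ratio of reads in the peak to the local background of the same library. Its median was 3.63 in the control (quartiles 3.38 and 3.97, range 2.81 to 11.2) and 3.50 after knockdown (3.26 and 3.83, range 2.82 to 13.1). At the ends of 2 or more genes the medians were 3.66 and 3.57, inside genes 3.51 and 3.38, and outside genes 3.56 and 3.41. The median width was 385 bp (287 to 553) in the control and 386 bp (286.5 to 559) after knockdown. At 2 or more gene ends it was 411.5 and 417.5 bp, inside genes 312 and 316.5 bp, and outside genes 338 and 343 bp. In all the single-end peaks covered 355 kb in the control and 414 kb after knockdown.

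More of these peaks were called in both libraries than of the whole list. A peak counted as shared when a peak of the other list overlapped it by at least 1 bp. In the control 501 of 789 were shared (63.5%, 60.03 to 66.9), against 53.2% of all control peaks on these chromosomes. In the knockdown 504 of 907 were shared (55.6%, 52.3 to 58.8), against 44.0% of all. At the ends of 2 or more genes the shares were 71.1% (64.2 to 77.4) and 55.6% (49.2 to 61.9), inside genes 38.3% (33.2 to 43.6) and 29.2% (25.1 to 33.6), and outside genes 42.5% (38.5 to 46.6) and 34.6% (31.1 to 38.3). The intervals of single-end peaks lay above those inside and outside genes in both lists, and overlapped those at 2 or more gene ends. In 500 pairs both peaks were at a single gene end.

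Whether a peak was shared went with how significant it was. The −log10 q is the authors' significance of a peak after correction for multiple testing. Of control peaks with a value from 1 to 1.5 at a single end 34.0% (26.3 to 42.5) were shared, of those from 2 to 3 69.0% (62.6 to 74.9), and of those of at least 5 96.8% (89.0 to 99.6). In the knockdown the same shares were 23.1% (16.1 to 31.3), 54.3% (48.4 to 60.2) and 96.2% (89.2 to 99.2). At equal significance the share stayed higher than for peaks away from gene ends, which had 16.0% (11.9 to 21.0) and 48.8% (41.98 to 55.7) in the first and the middle of these ranges in the control, and 9.54% (6.57 to 13.3) and 39.1% (33.3 to 45.2) after knockdown. At a value of at least 5 the 2 kinds had overlapping intervals, with 96.1% (88.9 to 99.2) and 89.8% (82.0 to 95) away from ends. Peaks at 2 or more gene ends had intervals that overlapped those of single ends. In the first and middle ranges their shares were 61.9% (38.4 to 81.9) and 76.3% (63.4 to 86.4) in the control. After knockdown they were 17.6% (6.76 to 34.5) and 53.6% (41.2 to 65.7). Peak width was not held equal in these comparisons.

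**Figure D2:**
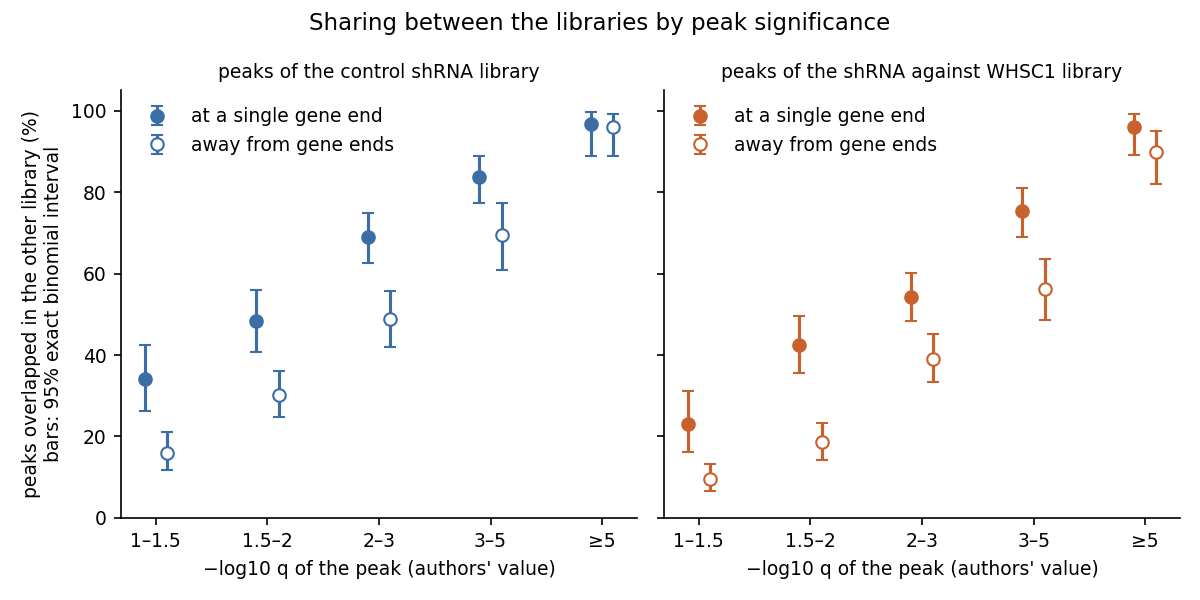
Share of peaks overlapped by a peak of the other library (vertical axis, %) by the peak's −log10 q (horizontal axis), for peaks at a single gene end (filled) and away from gene ends (open), with 95% exact binomial intervals. At single ends the share climbs from 34.0% to 96.8% in the control and from 23.1% to 96.2% after knockdown, and below a −log10 q of 3 the filled points lie above the open ones with separate intervals.

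The 288 control and 403 knockdown peaks without a partner were weaker and narrower than the shared ones. Their median fold was 3.49 against 3.73 in the control and 3.36 against 3.61 after knockdown. Their median width was 311.5 against 440 bp and 321 against 455.5 bp. They covered the gene end in 50% (44.1 to 55.9) of cases against 65.5% (61.1 to 69.6) in the control, and in 52.6% (47.6 to 57.6) against 65.3% (60.9 to 69.4) after knockdown. The median length of their genes was 47.1 kb against 41.9 kb in the control and 45.5 kb against 41.9 kb after knockdown.

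**Figure D3:**
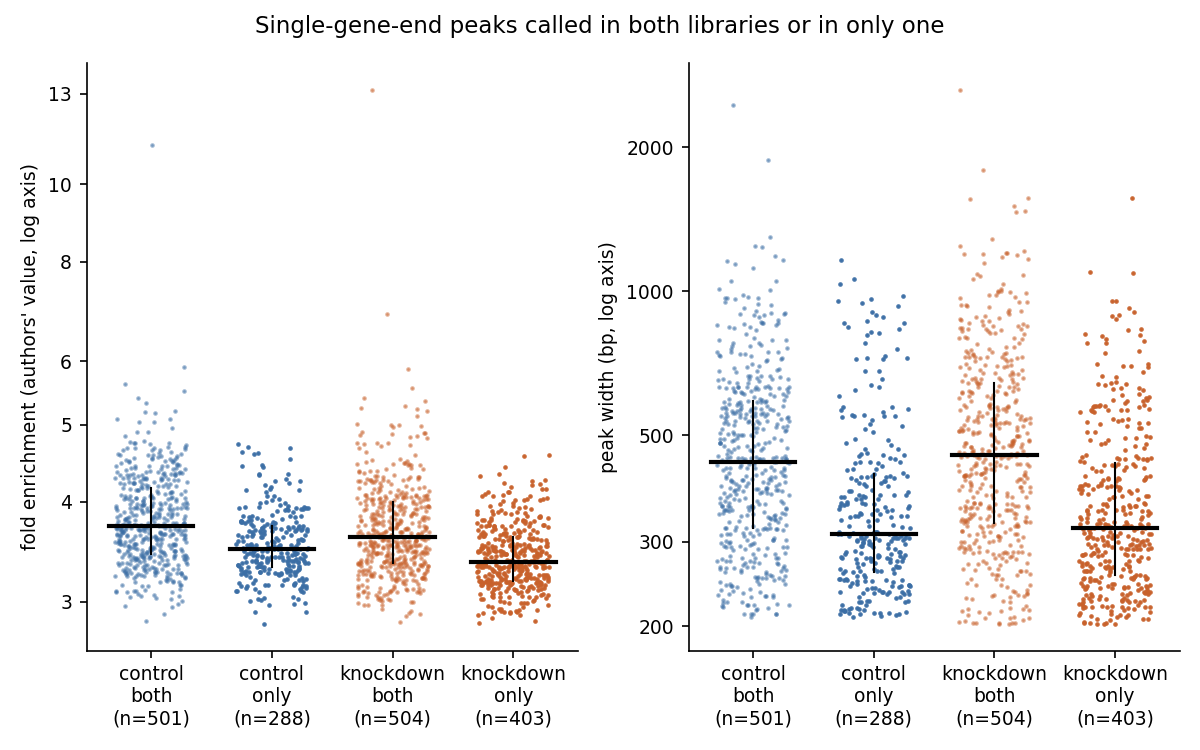
Fold enrichment (left, log axis) and width in bp (right, log axis) of each single-end peak, split by library and by whether the other library has an overlapping peak (both) or none (only). Horizontal bars are medians and vertical bars quartiles, and the median width is 440 and 455.5 bp for shared peaks against 311.5 and 321 bp for the rest.

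The highest of these peaks lay beside members of multi-copy families. At TAF11L7 on chromosome 5 (control chr5:17586418-17588862), a short gene of 0.597 kb, the fold was 11.2 in the control and 13.1 after knockdown, and the widths of 2445 and 2635 bp were the largest among them. At TAF11L5 in the same cluster the fold was 5.62 and 5.87, and at FAM90A9, which belongs to a repeated family, 5.90 and 6.88. None of these 3 peaks touched the gene itself, and reads of near-identical copies may have been placed at any of them, so that their values are uncertain.

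Among genes outside such families the highest shared peaks by control fold included genes of RNA handling, calcium binding and the cytoskeleton. ADGRV1, a very large adhesion receptor, had fold 5.50 in the control and 5.40 after knockdown. ZRANB2, a zinc finger protein that binds RNA at splice sites, had 5.40 and 3.66. SRI, the calcium-binding protein sorcin, had 5.32 and 4.52. The list continued with DTWD2, which modifies transfer RNA (5.204 and 4.45), TMTC2, which adds mannose to cadherins in the endoplasmic reticulum (5.18 and 4.08), MEX3C, an RNA-binding ubiquitin ligase (5.17 and 4.26), and MAP9, a microtubule protein of the spindle (5.09 and 3.79). These 7 peaks are ranked by the control fold, so that their lower knockdown values in all 7 cases carry no direction.

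Of the peaks called in the control list only, the 10 highest had folds from 4.43 to 4.73. CDKN3, a phosphatase that acts on cyclin-dependent kinase, was highest at 4.73 (chr14:54396756-54396981, 226 bp wide), just upstream of its start. PATL1, which takes part in messenger RNA decay, had 4.69, PDZD8, a tether between membranes of the endoplasmic reticulum and other organelles, 4.67, and LIMS1, an adaptor at integrin adhesions, 4.62. PSIP1 encodes LEDGF, a reader of histone H3 methylated at lysine 36, and its peak of fold 4.59 (chr9:15510722-15511097) covered the start in the promoter printed above. The others were EOLA1 (4.61), GAREM1, an adaptor of growth factor receptors (4.52), WDR19, a part of the ciliary transport complex (4.45), WDFY2, an endosomal protein (4.44), and UFM1, a ubiquitin-like modifier (4.43). No knockdown peak overlapped these 10 peaks.

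Of the peaks called in the knockdown list only, the 10 highest had folds from 4.21 to 4.58. TMEM144 was highest at 4.58 (chr4:158210206-158210589), followed by GNG12, a G protein gamma subunit (4.57). SEPSECS, the enzyme that makes selenocysteine on its transfer RNA, had 4.42, and DNAJC3, a co-chaperone of the endoplasmic reticulum, 4.34. FGD4, an exchange factor for the small GTPase CDC42, had 4.31, and TRDMT1, a transfer RNA methyltransferase, 4.27 at its 5′ end. BTBD8 (4.25), the DNA topoisomerase TOP2B (4.23), the ubiquitin ligase adaptor KBTBD8 (4.21) and STXBP3, which regulates vesicle fusion (4.21), completed the 10. No control peak overlapped these 10 peaks.

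Few peaks with a −log10 q of at least 5 lacked a partner, 2 of 63 in the control and 3 of 78 after knockdown. Among them were those of CDKN3 (5.61) and UFM1 (7.07) in the control, and of GNG12 (5.87) and ZNF143 (5.08) after knockdown. ZNF143 is a transcription factor of promoters, with fold 4.07, and it was named for its significance after its values were seen.

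Most protein-coding genes had no peak of this kind, as the lists are short. Of the 19974 genes 787 had one in the control (3.94%) and 904 after knockdown (4.53%). In both libraries 505 genes had one, while 282 had one in the control alone and 399 after knockdown alone, 1186 in all. NSD2 itself had no peak within 1 kb of an end in either list, and accessibility would not measure the effect of an shRNA on its messenger RNA.

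The genes with a peak were longer than protein-coding genes at large. Their median length was 43.9 kb in the control (95% interval of the median 40.1 to 48.1) and 43.7 kb after knockdown (39.3 to 46.7), against 24.2 kb over all (23.6 to 24.9). The genes over all were not matched for chromosome. They include genes with ends too near another gene's end to carry such a peak, and the length of these was not examined. With all genes ranked by length and cut into 10 groups of equal size, the shortest group reached 3.12 kb, and in it 1.00% had a peak in the control (0.613 to 1.54) and 1.05% after knockdown. In the ninth group, 83.7 to 152 kb, 6.06% (5.05 to 7.20) and 6.96% (5.88 to 8.17) did, and in the longest 5.16% and 5.91%. The longest genes with a peak were AGBL4 in the knockdown only (1501 kb, fold 3.14), NAALADL2 in both (1370 kb, 3.14 and 3.08) and GPHN in both (1227 kb, 3.56 and 3.32), which encodes gephyrin of inhibitory synapses. CSMD3 followed in the control only (1214 kb, 3.45) and PARD3B, a cell polarity protein, in the knockdown only (1075 kb, 3.95). Among the longest of their library were also ZBTB20, a transcriptional repressor (833 kb, 4.05 in the control), MAGI1, a scaffold of cell junctions (685 kb, 3.17), and EPHA6, an ephrin receptor (947 kb, 3.72 after knockdown).

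Member genes were spread unevenly over the chromosomes. Shares here are of all protein-coding genes of a chromosome, though a gene end near that of another gene could not carry such a peak. How many ends were so placed was not counted by chromosome. The highest shares were on chromosome 8, with 9.65% of 715 genes (7.59 to 12.1) in the control and 10.1% (7.96 to 12.5) after knockdown, chromosome 3 with 9.57% and 9.29% of 1066, and chromosome 5 with 8.96% and 9.85% of 904. On the gene-rich chromosome 19 it was 0.0689% (0.0017 to 0.383) and 0.207% (0.0427 to 0.603) of 1451 genes, 1 and 3 genes, and on chromosome 17 0.428% and 0.342% of 1169. None of the 239 genes of chromosome 21 or the 451 of chromosome 22 had a peak in either list, which allows shares of up to 1.53% and 0.815%.

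Promoters of genes with a 5′ peak were richer in CpG than promoters at large. In the RefSeq window from 250 bases before to 50 after the start, the median ratio of observed to expected CG pairs was 0.86 in the control and 0.87 after knockdown, against 0.76 over 15812 promoters. A ratio over 0.6 was found in 89.7% (87.1 to 91.9) and 89.9% (87.5 to 92.0) against 65.5% (64.8 to 66.3). At 5′ ends shared with another gene it was found in 91.3% (87.6 to 94.2) and 92.1% (89.1 to 94.6), so that it was not particular to single ends. Seen the other way, 5.55% (5.12 to 6.01) of promoters over that ratio had a control peak and 1.21% (0.938 to 1.54) of the others did. In the knockdown the shares were 6.46% (5.99 to 6.95) and 1.38% (1.08 to 1.72). By GC content the share rose from 1.198% below 40% GC to 5.68% (4.74 to 6.76) at 70 to 75% in the control and from 1.198% to 7.15% (6.09 to 8.34) after knockdown. Above 75% GC it was 2.86% (2.17 to 3.69) and 2.70% (2.03 to 3.52). Promoters whose start lies near another gene are among the 15812 but could not enter the member set.

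**Figure D4:**
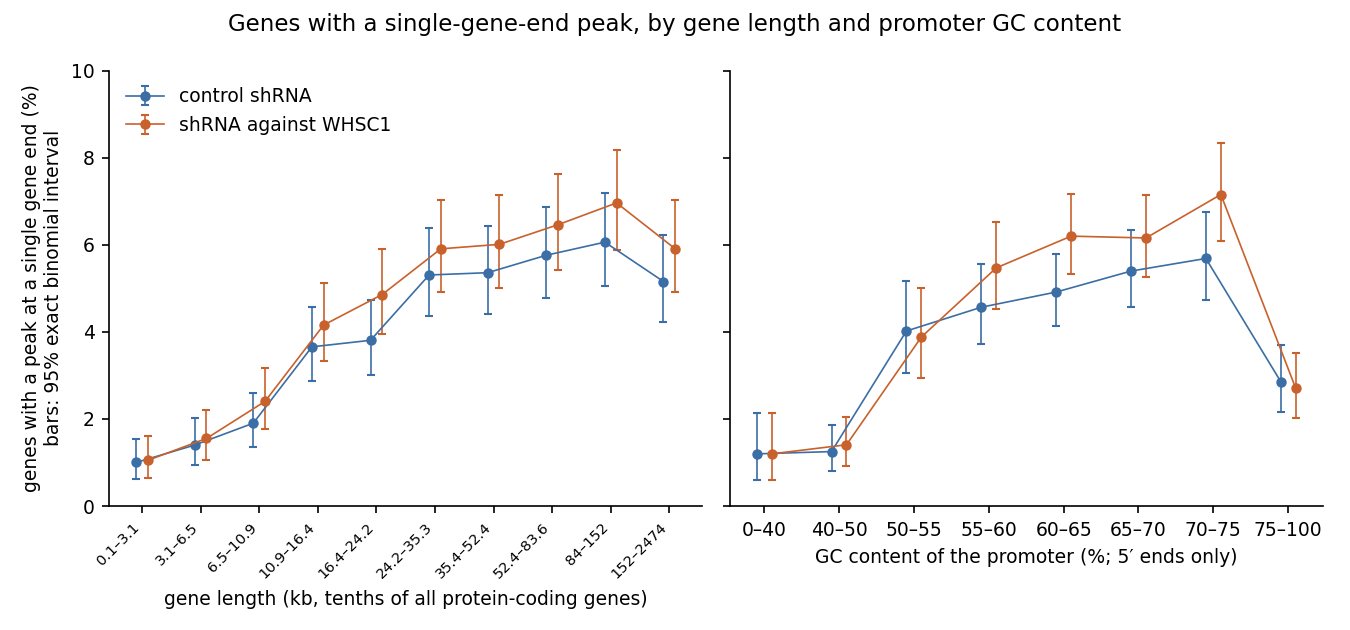
Share of genes with a single-end peak (vertical axis, %, with 95% exact binomial intervals) by gene length in kb in 10 groups of equal size (left) and by GC content of the promoter in % (right, peaks at 5′ ends only), for the control and the knockdown library. The share climbs from about 1.00% in the shortest genes to 6.06% and 6.96% in the ninth group, and falls to 2.86% and 2.70% in promoters above 75% GC.

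Of 12 short motifs searched on both strands of this window, the GC box and the CCAAT box were the most frequent, and a match is a description and not a binding site. GGGCGG, the GC box, occurred in 75.4% of promoters with a control peak and 74.2% with a knockdown peak, against 58.3% of all promoters. CCAAT occurred in 48.2% and 48.3% against 36.4%. At 5′ ends shared with another gene the GC box was in 66.9% and 66.6%, and CCAAT in 52.1% and 48.6%. Among promoters with a CG ratio over 0.6 the GC box was in 79.3% and 77.9% against 77.3% of all such promoters, and CCAAT in 47.8% (43.7 to 52.0) and 46.6% (42.8 to 50.5) against 35.4% (34.5 to 36.4). The ETS site CCGGAAG was in 18.9% and 20.03% against 14.1% of all, but among promoters over that ratio in 19.8% (16.6 to 23.3) and 21.2% (18.2 to 24.5) against 19.6%. The cyclic AMP response element TGACGTCA was in 5.15% and 4.57% against 2.56%, and over that ratio in 5.57% (3.84 to 7.77) and 4.93% (3.42 to 6.86) against 3.56% (3.21 to 3.94), with overlapping intervals. TATAAA was in 5.77% and 4.97% against 9.75%, and over that ratio in 5.22% (3.55 to 7.36) and 4.33% (2.92 to 6.17) against 4.99%. The AP-1 site TGANTCA was in 3.43% (2.16 to 5.15) and 4.30% (2.96 to 6.02) against 5.70% of all, and over that ratio in 1.91% (0.959 to 3.40) and 3.14% (1.95 to 4.76) against 3.07%.

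Further motifs occurred as follows in control, knockdown and all promoters, here without regard to CpG content. GCGCATGC, the NRF1 core, was in 5.46%, 6.32% and 4.28%, and AAGATGGC, the YY1 core, in 4.68%, 4.17% and 3.86%. The ZBTB33 palindrome CTCGCGAG was in 2.81%, 3.09% and 1.54%, and the E-box CACGTG in 11.9%, 10.8% and 8.82%. TGTTTAC, a forkhead site, was in 2.34%, 2.02% and 2.68%. None of the 12 motifs contains another.

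The widest peaks reached well over 1 kb. After TAF11L7 the widest control peaks were those of LRATD2 (1880 bp, 1556 bp after knockdown), the ubiquitin ligase ZNRF2 (1299 and 818 bp), CYP51A1 of sterol synthesis (1242 and 742 bp) and the kinase GSK3B (1237 and 983 bp). The widest knockdown peaks after TAF11L7 and ahead of LRATD2 were those of DIPK2A (1790 bp, 935 bp in the control), ZBTB37 (1565 bp, none in the control) and AZIN1 (1562 and 542 bp), which regulates polyamine synthesis. The peak at ZBTB37 also lay within reach of GAS5, a noncoding gene that hosts small nucleolar RNAs, 2 of which, SNORD74 and SNORD75, had an end in reach as well. In the library where each was among the widest, the folds ran from 2.996 at AZIN1 after knockdown to 3.56 at LRATD2 in the control, all below the median of the single-end peaks of that list.

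Many peaks at the end of 1 protein-coding gene also lay within 1 kb of a noncoding gene's end. This held for 294 control peaks (37.3%, 33.9 to 40.7) and 345 knockdown peaks (38.0%, 34.9 to 41.3). Long noncoding RNAs were in reach of 273 and 307 peaks, among them 73 and 82 whose symbol marks a divergent transcript and 70 and 75 whose symbol marks an antisense transcript. Transfer RNA genes were in reach of 10 and 11 peaks, microRNA genes of 9 and 14, and small nucleolar RNA genes of 3 and 6. Peaks with a noncoding end in reach were shared in 68.0% (62.4 to 73.3) against 60.8% (56.4 to 65.1) of the others in the control, and in 59.7% (54.3 to 64.9) against 53.0% (48.8 to 57.2) after knockdown, with overlapping intervals. ZRANB2, PATL1, GSK3B and DNAJC3 were among the genes with a divergent transcript in reach.

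Genes of 27 lists, drawn up by symbol, show which functions the member genes have. The lists hold 4139 genes, of which 183 had a peak in the control and 216 after knockdown. Each count is to be read against the 3.94% and 4.53% over all genes. That background was not matched for chromosome, gene length or CpG content. Among promoters with a CG ratio over 0.6 the shares with a peak at the 5′ end were 5.55% and 6.46%. These promoters belong to genes of known strand, with none on chromosome 8, whereas the lists count a peak at either end of any of their genes. Genes whose only peak also reached another gene's end are not counted, in the lists or in the background. The intervals are not adjusted for the number of lists, no list was tested, and a symbol pattern can catch a gene of another function. In what follows a pair of folds gives the control first.

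Genes of cell division and chromatin had shares above the background in both libraries. The control interval of the chromatin list included the 5.55% of promoters with a CG ratio over 0.6. The other intervals of these lists lay above the 5.55% and 6.46% of such promoters, which are shares of another set of genes and of 5′ peaks only. Of 206 genes for cyclins, their kinases, mitosis and the centrosome, 20 had a peak in the control (9.71%, 6.03 to 14.6) and 22 after knockdown (10.7%, 6.81 to 15.7), 16 of them in both. The highest were CDC73 (3.20 and 4.98), which by function belongs to a complex of transcription elongation, the kinase CDK13 (4.26 and 4.46), also of transcription, cyclin G1, CCNG1 (4.35 and 4.19), and CEP97 of the centriole (3.73 and 4.19). Of 149 histone modifiers and chromatin remodellers, 13 (8.72%, 4.73 to 14.5) and 17 (11.4%, 6.79 to 17.6) had a peak, 8 in both. ARID4A, part of a histone deacetylase complex, had 4.16 and 4.86, the deacetylase HDAC2 4.33 and 4.72, and the methyltransferase and transposase fusion SETMAR 4.50 and 3.90. KMT2E had a peak in the knockdown list only, of 4.12. Of 89 histone genes only H2AZ2, a histone variant, had a peak, after knockdown (3.82). The 0 in the control allows a share of up to 4.06%, which includes the background of 3.94%. A peak at a histone gene that also reached the end of another protein-coding gene could not enter this count. How many histone genes are so placed was not examined.

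Of 126 genes of RNA polymerase, its general factors and Mediator, 12 (9.52%, 5.02 to 16.0) and 8 (6.35%, 2.78 to 12.1) had a peak. TAF11L7 and TAF11L5, the copies described above, led this list, followed by the general factor GTF2A1 (4.74 and 3.08) and the Mediator subunit MED30 (3.11 and 4.14). Zinc finger genes of the C2H2 type, taken over all chromosomes, had shares near the background, with 25 (4.11%, 2.68 to 6.01) and 33 (5.43%, 3.77 to 7.54) of 608. The list was not split by chromosome, and any of its genes on chromosome 19 fall where 1 and 3 of 1451 genes had a peak. The share on the other chromosomes was therefore not measured. The highest zinc finger genes were ZNF33B (3.35 and 5.01), ZBTB20 (4.05 and 4.90), ZNF695 (4.59 and 3.21) and ZNF451 (3.53 and 4.24). Of 92 genes for DNA repair and replication 4 had a peak in each list (4.35%, 1.197 to 10.8) and none in both. The highest were MCM3, a subunit of the replicative helicase, in the knockdown only (3.88), RFC4, of the clamp loader, in the control only (3.84), and ERCC6 (3.81) and MCM9 (3.66) in the knockdown only.

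Among genes of protein synthesis the aminoacyl-tRNA synthetases had the largest share, 5 of 37 in the control (13.5%, 4.54 to 28.8) and 4 after knockdown (10.8%, 3.03 to 25.4). The 4 with a peak in both were WARS2 of mitochondria (4.15 and 5.36), LARS1 (4.75 and 3.94), FARSB (4.54 and 3.20) and TARS1 (4.14 and 4.17). Mitochondrial ribosomal proteins numbered 6 (7.79%, 2.91 to 16.2) and 2 (2.60%, 0.316 to 9.07) of 77, with overlapping intervals. MRPS9 (3.41 and 3.93) had a peak in both, and MRPL17 (3.97), MRPS33 (3.48) and MRPL3 (3.37) in the control only. Of 84 cytosolic ribosomal proteins 3 (3.57%) and 5 (5.95%) had a peak, RPS23 (3.79 and 3.52) and RPL37 (3.38 and 2.99) in both, and RPS12 (3.56) and RPS13 (3.28) in the knockdown only. Of 72 genes matched as translation factors 5 (6.94%) and 6 (8.33%) had one. The highest was EIF2AK3 (4.29 and 3.98), which is not a translation factor but the stress kinase PERK, followed by the release factor ETF1 in the knockdown only (4.15). The initiation factor subunit EIF3F had a peak in the knockdown only (3.53) and EIF3A in the control only (3.51).

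RNA helicases and splicing genes had shares close to the background, 7 (3.33%, 1.35 to 6.75) and 12 (5.71%, 2.99 to 9.77) of 210. DDX18, a helicase of ribosome assembly, had 4.29 and 4.99, HNRNPD, which binds AU-rich RNA, 3.36 and 4.07, and DDX59 3.48 and 4.04. DDX11, a DNA helicase of sister chromatid cohesion, had a peak in the knockdown only (4.03).

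The lists of ubiquitin conjugation and of membrane traffic had knockdown intervals above the background, while their control intervals included or nearly reached it. The same knockdown intervals included the 6.46% of promoters with a CG ratio over 0.6. Those of chaperones and of the proteasome included the background after knockdown. Of 423 genes for ubiquitin conjugation and removal 26 (6.15%, 4.05 to 8.88) and 32 (7.57%, 5.23 to 10.5) had a peak, 19 in both. FBXO5, which holds back the anaphase-promoting complex, had 4.65 and 5.55, the deubiquitinases OTUD6B 4.68 and 3.99 and USP1 4.34 and 3.54, and BTBD8, matched by symbol, is given above. Of 300 genes of membrane traffic 19 (6.33%, 3.86 to 9.71) and 26 (8.67%, 5.74 to 12.4) had one, 14 in both. Among the highest were the small GTPases RAB30 (4.61 and 3.84), RAB2A (4.27 and 3.29) and ARL6 (3.56 and 4.17), the last of cilia. Of 73 chaperones 5 (6.85%) and 7 (9.59%, 3.94 to 18.8) had one, with HSPH1 (3.95 and 3.96), HSPA8 (3.76 and 2.90) and HSPA4L (3.75 and 3.42) in both. Of 50 proteasome genes only PSMA5 had one, after knockdown (2.0%, 0.0506 to 10.6, fold 3.20), and 0 in the control allows up to 7.11%.

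Genes of ciliary transport had the largest difference in share between the libraries among the 27 lists, with 8 of 34 in the control (23.5%, 10.7 to 41.2) and 3 after knockdown (8.82%, 1.86 to 23.7). The intervals overlapped, and with 1 library per group the difference was not tested. BBS9 (4.53 and 4.27), TTC21B (3.40 and 4.01) and DYNC2H1 (3.24 and 3.67) had a peak in both. WDR19 (4.45), BBS7 (3.81), BBS12 (3.66), IFT70A (3.63) and IFT57 (3.24) had one in the control only. BBS genes encode the complex that carries membrane proteins into the cilium, IFT genes, WDR19 and TTC21B the trains that move along it, and DYNC2H1 the motor. The names beyond the 4 highest, BBS9, WDR19, TTC21B and BBS7, were added after their values were seen.

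Of 36 peroxisome and autophagy genes 2 (5.56%, 0.680 to 18.7) and 5 (13.9%, 4.67 to 29.5) had a peak, the latter the highest knockdown share of the 27 lists, on few genes. ATG10 (3.59 and 3.997) and PEX2 (3.71 and 3.99) had it in both, and PEX7 (3.31) and ATG5 (3.31) in the knockdown only. Of 96 respiratory chain and ATP synthase genes 2 (2.08%) and 4 (4.17%) had one, COX7C in both (3.46 and 3.96), COX18, an assembly factor, in the knockdown only (4.18), ATP5MC3 in the control only (3.54) and ATP5MC1 in the knockdown only (3.38). Of 46 nuclear transport genes 2 (4.35%) and 3 (6.52%) had one and none in both. They were TNPO1 (3.86), IPO13 (3.38) and KPNA1 (3.18) after knockdown and KPNA5 (3.41) and KPNA4 (2.81) in the control. Solute carriers numbered 14 (3.63%) and 17 (4.404%) of 386, near the background. SLC2A13, a myo-inositol carrier, had 3.63 and 4.41, SLC25A36 of mitochondria 4.405 and 3.20, the choline carrier SLC44A1 4.04 and 4.07, and SLC33A1, which carries acetyl-CoA, 3.99 and 3.89.

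**Figure D5:**
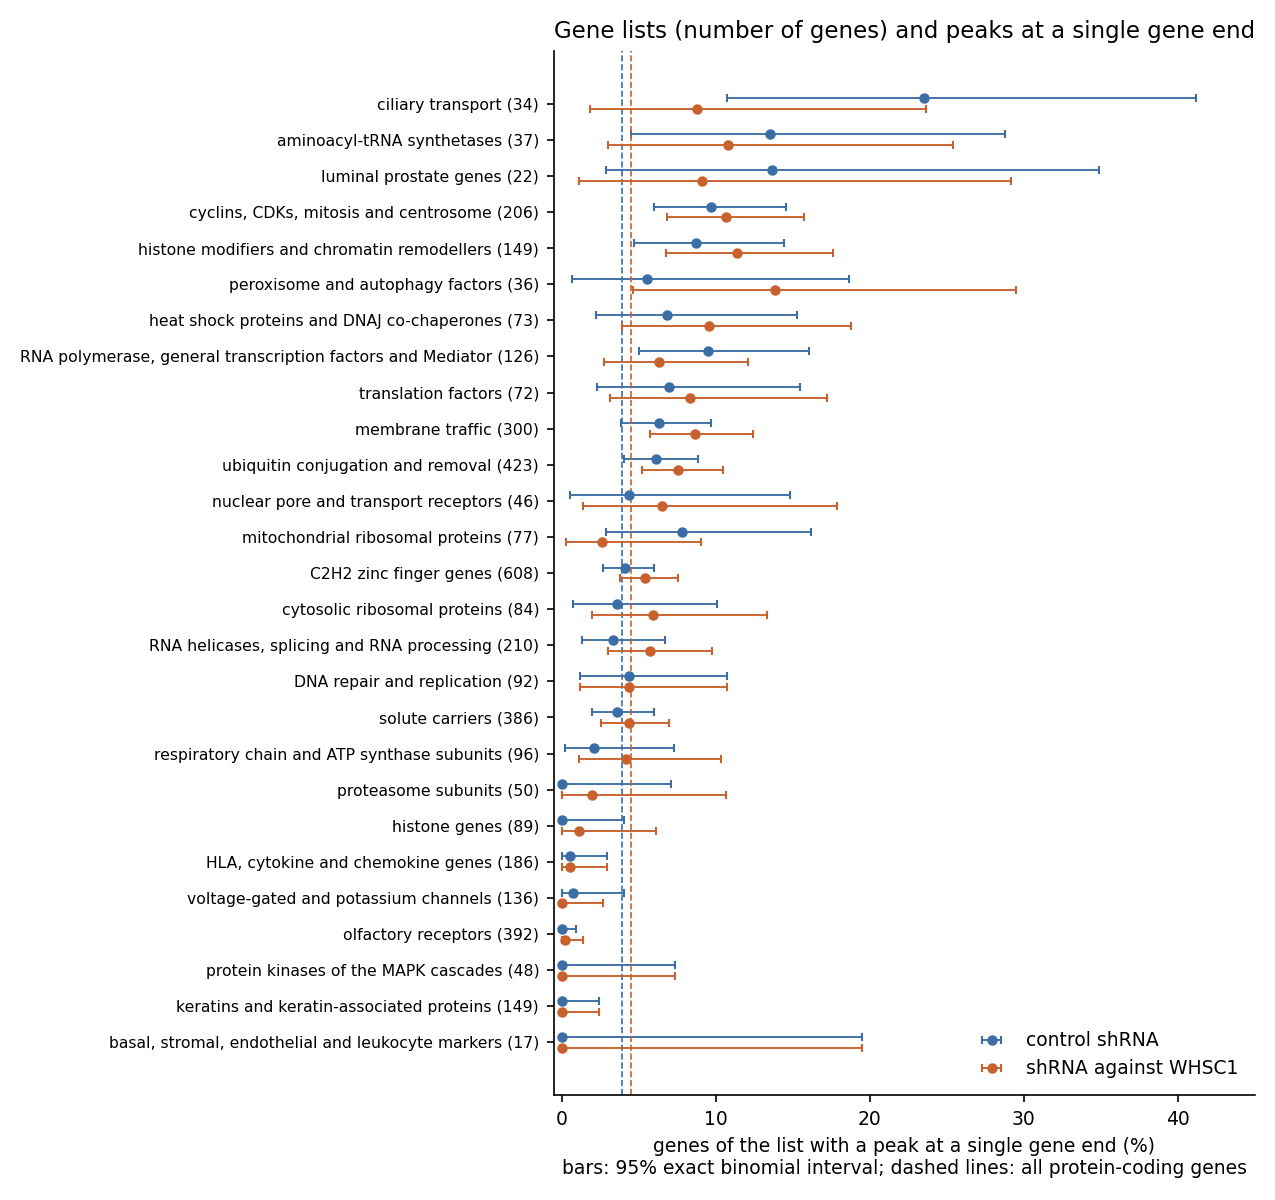
Share of the genes of each list that had a single-end peak (horizontal axis, %, with 95% exact binomial intervals), for 27 lists with the number of genes in parentheses, in the control and knockdown libraries. Dashed lines mark the 3.94% and 4.53% of all protein-coding genes, with the lists of cell division and chromatin to their right in both libraries and the olfactory receptors and keratins to their left.

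Some lists of genes used in few tissues had hardly any peak. The share of genes with a peak also differed by chromosome, gene length and CpG content. The lists were not matched for these, so that tissue use cannot be told apart from them. Of 392 olfactory receptors none had a peak in the control, which allows up to 0.937%, and OR2L13 alone had one after knockdown (3.15). Of 149 keratin and keratin-associated genes none had a peak in either list, which allows up to 2.45%. Of 136 genes of voltage-gated and potassium channels only KCNJ2 had one, in the control (3.50). Of 186 genes matched as HLA, cytokine or chemokine genes only IL1RAP had one (3.50 and 3.16), which is a receptor subunit for interleukin 1 and no cytokine. Among broadly used genes, none of 48 of the MAP kinase cascades had a peak in either list, which allows up to 7.40% and so does not set them below the background.

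The prostate identity of the cells showed little at single gene ends. Of 22 genes of luminal prostate cells 3 had a peak in the control (13.6%, 2.91 to 34.9) and 2 after knockdown (9.09%, 1.12 to 29.2). ACP3, prostatic acid phosphatase, had a peak over its start in both (3.54 and 2.83). STEAP2, a metalloreductase, had one in both lists (2.97 and 3.24) on opposite sides of the start, so that the 2 peaks did not overlap. NDRG1, which androgen and stress induce, had one in the control only (3.85). Of 12 defining luminal markers ACP3 and STEAP2 were the 2 with a peak of any kind within 1 kb of an end, and the others, with KLK3, KLK2, TMPRSS2, FOLH1, KRT8, KRT18, HOXB13 and SLC45A3 among them, had none. The 17 markers of basal, stromal, endothelial and leukocyte cells had none in either list either. With so few luminal markers at a peak, single gene ends could not check the label of the cells. The chromosome of each marker was not taken into account either, and on chromosomes 17, 19 and 21 hardly any gene had a peak.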

How the data were processed

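ATAC-seq was measured in 1 control and 1 knockdown library of C4-2 cells, grouped by the condition in the labels. The build was GRCh38, and the submitters' processing notes name Bowtie2 2.2.9, CASAVA 1.8.2, MACS2, ChIPseeker 1.22.1, Picard 1.101 and SAMtools 1.9. Their roles, the MACS2 version and options, the shift of reads for the transposase and the treatment of duplicates were not given in the sources used here, and each can change the number, width and place of peaks. The authors called broad peaks in each library by itself, without pooling, and deposited each list. For each peak the authors give a score, a fold enrichment (a linear ratio over the local background) and the −log10 of a p-value and of a q-value. The deposited score equals 10 times the −log10 q, truncated, for all 2010 and 2418 peaks. The files hold no read counts, so depth is unknown and precision is limited by how many peaks there are and by the single library per group.

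Positions of genes were read from a RefSeq table of the same build (GRCh38.p14), strand and promoters from the RefSeq promoter table, matched by gene identifier. Peaks were classed by distance of their edge to gene ends, and coordinates are 1-based. Shares carry 95% exact Clopper-Pearson intervals. The work used scipy 1.17.1, pandas 2.3.3, numpy 2.4.6, matplotlib 3.10.9 and Python 3.11.15. Tested on simulated peaks, the classing recovered 400 of 400 planted peaks and 250 of 250 planted partners.

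Named genes are the 10 with the highest fold called in 1 library only, for each library, the 10 highest shared by control fold, the 5 highest at 3′ ends, the 5 widest, the 5 longest genes and up to 4 per list by fold. The members, lists and rules were chosen with earlier results of these data known. Some items that the rules choose are not reported here. No set test was run. Alternatives were other distances, thresholds on −log10 q, equal list sizes, noncoding ends counted, unnamed LOC genes left out, distance from the peak centre, other definitions of overlap and a shorter promoter window.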

Additional observations from a re-analysis of the deposited data

How the results depend on the processing

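Of 119 values recomputed under the alternatives for 17 results, 88 stayed within 1.5 times of the count or within the interval of the value reported, and 31 moved. With only peaks of a −log10 q of at least 2, the member peaks numbered 468 in the control and 574 in the knockdown, their genes 468 and 573 and the listed genes 95 and 136. The median fold was then 3.91 and 3.72 and the median knockdown width 420 bp. With at least 5 there were 63 and 78 peaks, 63 and 78 genes and 10 and 21 listed genes. Of these peaks 46.0% and 37.2% were shared, since partners had to pass the same limit, the median fold was 4.59 and 4.46 and the median width 525 and 499 bp. Where noncoding ends also counted against a single end, 495 and 562 peaks, 494 and 560 genes and 117 and 130 listed genes were left. When an overlap of 50% of both peaks was asked for, 47.4% and 41.2% were shared. With equal numbers of peaks in both lists, 59.9% of knockdown peaks were shared. At a distance of 3 kb, 97.2% of knockdown peaks lay at the 5′ end. The 20 genes named as called in 1 library only also lacked a partner when peaks within 1 kb counted as shared and when peaks within 500 bp were merged. The stricter overlap of 50% could not have given them one. No paired analysis was possible because each group has 1 library and no test was made. With unknown depth and no replicate, none of the differences between the libraries can be told apart from variation between libraries.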
